A study of Mus musculus with 12 samples.

Results

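The Fanconi anemia core complex is the multi-subunit ubiquitin ligase that switches on the repair of DNA interstrand crosslinks. Its 10 genes studied here, Fanca, Fancb, Fancc, Fance, Fancf, Fancg, Fancl, Fancm, Faap24 and Faap100, were taken by name from the 35999 genes of the deposited table. RNA was sequenced from sorted LSK cells of mouse bone marrow, the lineage-negative fraction positive for Sca-1 and KIT that holds the hematopoietic stem cells and multipotent progenitors. There were 6 libraries from mice labelled WT and 6 from mice labelled FancgKO, called KO here, with 1 library per mouse and replicate numbers from 2 to 7 in both genotypes. The KO mice were Fancg-/- and no treatment is given for either group. The age and sex of the mice and the exons removed from Fancg were not given in the sources used here. The values, called signal, were read as estimated read counts scaled by a size factor for each library. In genes with 1 transcript, 40.1% to 47.5% of values above 0 came to whole reads (within 0.001). In genes with several transcripts it was 2.97% to 4.21%, so their values may carry more than that 1 factor.

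In this pathway a crosslink that stalls a replication fork is first recognised by FANCM and its partner FAAP24, a DNA translocase and a DNA-binding protein that anchor the rest of the complex to chromatin. FANCL is the RING-domain ligase and sits with FANCB and FAAP100 in the catalytic module, FANCC, FANCE and FANCF bind the substrate, and FANCA and FANCG hold a module with FAAP20 that tethers the complex. With UBE2T as its ubiquitin-conjugating partner the complex monoubiquitinates FANCI and FANCD2. Inherited loss of many, though not all, of its subunits gives bone marrow failure from the loss of hematopoietic stem cells. FANCB is the X-linked subunit.

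Promoter sequences were read to show what precedes the RefSeq start of the targeted gene and of the member with the largest difference between genotypes, with the Fancf promoter as the one richest in CCAAT boxes. RefSeq promoters of GRCm38.p6 were found for 10 of 10 members, and the 250 bases before each annotated start were searched on both strands for the words CCAAT (a box bound by the factor NF-Y), TTTCCCGC, TTTGGCGC, TTTCGCGC and TTTGCCGC (E2F-type words) and CCGGAAGT (an ETS-type word). CCAAT was found in 7 of 10 member promoters, those of Fanca, Fancb, Fancc, Fance, Fancf, Fancm and Faap24, against 33.8% of the 32851 mouse promoters searched in the same way. Among the members an E2F-type word was found only in Fancg, 52 bases before its RefSeq start, against 1.86% of all promoters, and the ETS-type word only in Faap24, 44 bases before its start, against 2.88%. The RefSeq start of Fancg lies inside the GENCODE span of the gene, and 205 of the 250 bases searched, the printed site included, are exonic in longer GENCODE transcripts of Fancg, so the word is upstream of the RefSeq start but not of the gene. In Faap24, 69 of the 250 bases are exonic in GENCODE, and the ETS-type word lies among them. All 250 bases searched for Fancl are exonic, as are 18 for Faap100 and 11 for Fance. The Fancc window (chr13:63431746-63431995) holds no exonic bases but lies inside the GENCODE span of the gene (chr13:63285043-63497278). No word found in a member overlapped another. These matches are letters in a window and were not tested as binding sites. Capitals mark CCAAT in Fancf (chr7:51862268-51862517, minus strand) and in Fancm (chr12:65075353-65075602, plus strand), and the E2F-type word in the 30 bases of Fancg (chr4:43010335-43010364, minus strand), each written 5′ to 3′ on the strand of the gene.
Fancf: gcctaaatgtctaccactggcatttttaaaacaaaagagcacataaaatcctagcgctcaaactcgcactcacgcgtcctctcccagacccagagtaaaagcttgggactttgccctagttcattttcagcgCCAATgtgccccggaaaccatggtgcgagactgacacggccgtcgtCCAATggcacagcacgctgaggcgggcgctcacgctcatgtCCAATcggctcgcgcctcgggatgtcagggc
Fancm: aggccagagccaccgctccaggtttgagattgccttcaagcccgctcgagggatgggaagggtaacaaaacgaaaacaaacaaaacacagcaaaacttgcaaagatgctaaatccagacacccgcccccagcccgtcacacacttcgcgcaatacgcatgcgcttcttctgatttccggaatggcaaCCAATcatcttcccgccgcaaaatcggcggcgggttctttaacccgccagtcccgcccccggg
Fancg: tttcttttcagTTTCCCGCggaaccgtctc

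The targeted gene was examined first. Fancg (ENSMUSG00000028453.10) is a gene of 11 merged exons on the minus strand (GRCm38, chr4:43002343-43010506), and shares neither exonic bases with a gene on the other strand nor any 31-base word with another gene's transcripts. Its signal in the WT libraries was 4.76 at the lowest, 8.59 at the median and 24.1 at the highest. In the libraries labelled KO it was 4.46, 7.91 and 14.5. The groups overlapped, and only 1 library labelled KO, replicate 3, lay below every WT library. The mean was 10.3 ± 6.96 (SD, n = 6) in WT and 8.53 ± 4.18 (SD, n = 6) in KO, a log2 difference of -0.20 (two-sided exact permutation test, p = 0.636) that became 0.07 when WT replicate 7, the library with 24.1, was left out. The 95% interval of the fold (limma without the filter, since Fancg lies below it at a mean signal of 9.43) ran from 0.489 to 1.56. Each library held between 3.16 and 22.3 approximate reads of Fancg, and reads from exons that the allele leaves in place would count as Fancg here. Since the targeted gene did not separate the libraries, the groups are named by their labels throughout.

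Across the core complex the genotypes were not separated in any gene. Of the 8 members that passed the filter of a mean signal of at least 10, 0 had an unadjusted p under 0.05 in limma, against 3.67% of the 8887 genes tested, and 0 had an adjusted p under 0.05, against 0% of genes tested. With so few genes a count of 0 lies near these shares. In every one of the 10 members the 2 groups of 6 libraries overlapped, as in nearly all tested genes, since only 0.09% had groups that did not. Of the 8 tested members, 7 had a log2 difference above 0, against 50.7% of tested genes, and their median was 0.26, against 0.0031 over tested genes. Over all 10 members, Fancf and Fancg included, 8 were above 0 with a median of 0.21. With each library left out in turn the count of 7 ran from 5 to 7. It was 5 without WT replicate 6, KO replicate 4 or KO replicate 7, and 6 with quantile normalization. The members were measured in the same libraries, so they are not independent. The 95% intervals of all 10 differences, which rest on the spread between libraries of both genotypes, included 0. They were wide, reaching -1.03 in Fancg and 1.62 in Fancm, so sizeable differences are not excluded. Every member was above 0 in all 12 libraries. An exact permutation p under 0.05 was reached by 0 of 10, near the 2.86% of the 21536 genes with signal. The exact p adjusted over those genes was 1 for each member.

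**Figure D1:**
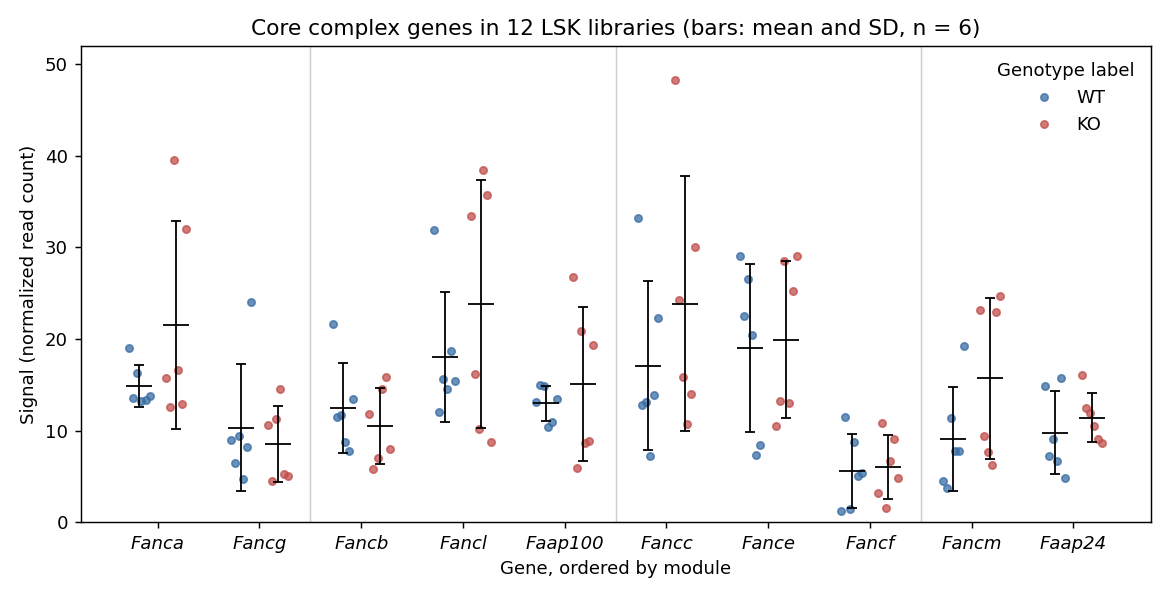
The vertical axis is signal, the normalized read count, for each of the 10 core complex genes on the horizontal axis, ordered by module. Points are the 6 WT and 6 KO libraries and bars the mean and SD, and the groups overlap in every gene.

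Of the module that holds FANCA and FANCG, Fanca encodes its largest protein. In WT, Fanca had a signal of 13.3 at the lowest, 13.7 at the median and 19.0 at the highest, and in KO 12.6, 16.2 and 39.6. The WT libraries lay close together, while KO replicates 4 and 7 stood above all of them at 39.6 and 32.0 and 2 KO libraries lay below all of them. The mean was 14.9 ± 2.29 (SD, n = 6) in WT and 21.6 ± 11.4 (SD, n = 6) in KO, a fold of 1.30 on the log2(signal + 1) scale (exact permutation test, p = 0.281). The log2 difference of 0.38 was 0.19 without KO replicate 4 and 0.25 without KO replicate 7.

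In the catalytic module, Fancl encodes the ligase itself. Its signal was 12.1, 15.5 and 31.9 in WT (lowest, median, highest) and 8.76, 24.9 and 38.4 in KO. KO replicates 2, 5 and 6 stood above all WT libraries and 2 KO libraries below them, which left a mean log2 difference of 0.23 (95% interval -0.55 to 1.01, exact p = 0.571). Leaving out 1 library gave 0.053 without KO replicate 5, 0.073 without KO replicate 6, 0.092 without KO replicate 2 and 0.14 without WT replicate 3, and 0.40 to 0.46 without WT replicate 2, KO replicate 4 or KO replicate 7. Fancb, which stabilises the ligase, was the member with the lowest difference, with 7.80, 11.6 and 21.7 in WT and 5.85, 9.94 and 15.9 in KO. No KO library exceeded the highest WT library and 2 lay below the lowest, and the log2 difference was -0.24 (95% interval -0.90 to 0.42, exact p = 0.437). It was -0.074 without WT replicate 2, -0.10 without KO replicate 3, -0.15 without KO replicate 4 and -0.36 without KO replicate 6. Faap100, the third partner of the module, had 10.4, 13.3 and 15.0 in WT and 5.90, 14.1 and 26.8 in KO. Here 3 KO libraries stood above all WT libraries and 3 below them all. The log2 difference of 0.03 (exact p = 0.931) turned to -0.16 at its lowest when 1 library was left out, to -0.0045 with quantile normalization, and to -0.03 without WT replicate 3 and KO replicate 7.

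In the substrate-binding module, Fancc had 7.27, 13.5 and 33.2 in WT and 10.8, 20.1 and 48.3 in KO. KO replicate 2 was the highest library of the 12 and the only KO library above all WT libraries. The mean was 17.1 ± 9.23 (SD, n = 6) in WT and 23.9 ± 13.9 (SD, n = 6) in KO, a log2 difference of 0.43 (95% interval -0.37 to 1.23, exact p = 0.333). It was 0.20 without KO replicate 2, 0.23 without WT replicate 5 and 0.64 at its highest, without WT replicate 2. Fance, the subunit that contacts FANCD2, had 7.33, 21.5 and 29.1 in WT and 10.5, 19.2 and 29.1 in KO, so both genotypes covered nearly the same range. Its log2 difference was 0.12 (95% interval -0.67 to 0.90, exact p = 0.799) and ran from -0.10 to 0.27 when each library was left out in turn. Fancf, the adaptor between the modules, is a gene of 1 exon and 1 transcript, and its signal came to whole reads within 0.02 in 12 of 12 libraries. It held 1 read in WT replicate 2, 10 reads in WT replicate 3 and 13 reads in WT replicate 5, and from 2 to 13 reads in the KO libraries. Its signal was 1.20, 5.21 and 11.5 in WT and 1.56, 5.74 and 10.9 in KO. Fancf fell below the filter with a mean signal of 5.80, and its log2 difference of 0.19 (exact p = 0.712) ran from -0.07 to 0.45 with each library left out in turn.

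In the anchoring module, Fancm had the largest difference of the complex. Its signal was 3.71, 7.74 and 19.3 in WT and 6.24, 16.2 and 24.7 in KO. KO replicates 2, 6 and 7 stood above all WT libraries at 23.2, 22.9 and 24.7, and no KO library lay below the lowest WT library, yet the groups overlapped. The mean was 9.06 ± 5.70 (SD, n = 6) in WT and 15.7 ± 8.76 (SD, n = 6) in KO, a fold of 1.64 and a log2 difference of 0.71 (95% interval -0.19 to 1.62, exact p = 0.167). This value moved with the libraries that entered. Without WT replicate 7 it was 0.95 (exact p = 0.0736) and without KO replicate 5 it was 0.92 (exact p = 0.0823), the only settings run in which the unadjusted limma p of a member was under 0.05 (exact p above it in both, limma adjusted p = 0.999 in both). Without both WT replicate 3 and KO replicate 7 it was 0.37 (exact p = 0.508). Faap24, the DNA-binding partner of FANCM, had 4.84, 8.16 and 15.7 in WT and 8.63, 11.2 and 16.0 in KO, with KO replicate 2 the only KO library above all WT libraries, and a log2 difference of 0.29 (95% interval -0.36 to 0.94, exact p = 0.320). It was 0.13 without WT replicate 7, 0.19 without KO replicate 2 and 0.44 without WT replicate 6.

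**Figure D2:**
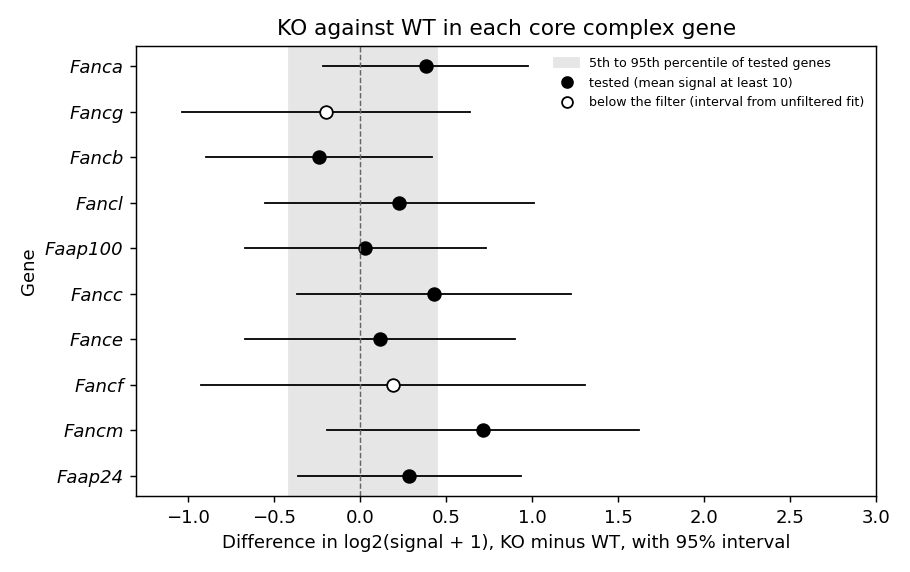
The horizontal axis is the difference in log2(signal + 1), KO minus WT, with its 95% interval, for each core complex gene on the vertical axis. The grey band holds the 5th to 95th percentile of the differences of tested genes, -0.41 to 0.45, and every interval crosses 0.

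The spread between libraries differed between genotypes in some members, which was seen only after the values were in hand and whose difference was not tested. The SD of log2(signal + 1) in Faap100 was 0.20 in WT and 0.81 in KO, and the ratio of 3.96 was reached by 0.911% of tested genes. In Fanca it was 0.20 in WT and 0.67 in KO, a ratio of 3.41 reached by 1.63% of tested genes. Faap24 went the other way, with a ratio of 0.50, and the other 5 tested members lay between 0.78 and 1.97. Approximate reads were few in all members, from 72 in total for Fancf to 256 for Fancl over the 12 libraries. The variance of approximate reads between libraries was from 1.26 times that of read counting alone in Faap24 to 6.80 times in Fancc. Among 2683 genes of like mean signal this ratio had a median of 2.04 and a 5th to 95th percentile of 0.664 to 6.94. Only Fancf came to whole reads in 12 of 12 libraries. In members with several transcripts an approximate read need not be 1 read, so the ratio may also hold how transcripts were summed.

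**Figure D3:**
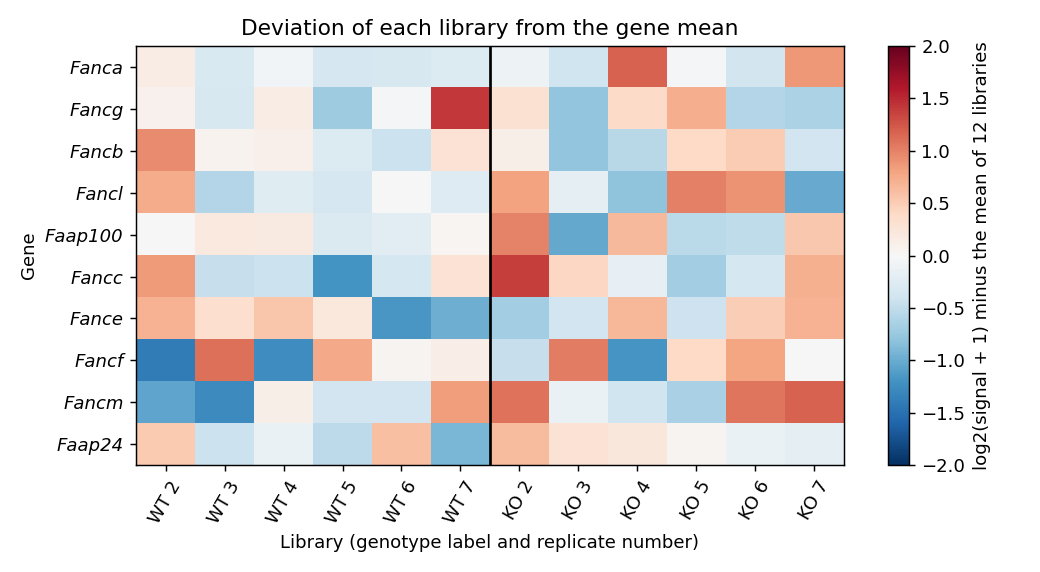
Each cell gives the deviation of a library, on the horizontal axis, from the 12-library mean of log2(signal + 1) of the gene on the vertical axis, red above and blue below on a scale from -2 to 2. No block of genes changes colour at the line between WT and KO, and the 6 KO libraries of Faap100 and Fanca vary more than the 6 WT libraries.

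The summed signal of the 10 members was 129 ± 27.3 (SD, n = 6) in WT, from 103 to 177, and 156 ± 28.5 (SD, n = 6) in KO, from 115 to 200. WT replicate 2 and KO replicate 2 were the highest library of their genotypes at 177 and 200. Over the 45 pairs of members, the Pearson correlation across the 12 libraries, taken on deviations from the genotype means, ran from -0.67 to 0.75 with a median of 0.04, and 24 pairs were above 0. The highest was that of Fancb with Fancl at 0.75, while Faap100 of the same module was at 0.046 with Fancb and -0.27 with Fancl. Fanca with Faap100 came next at 0.62, and the lowest was that of Fanca with Fancf at -0.67. These points share libraries and size factors, and low read counts limit them. Over the 12 libraries the genes most like Fancg were Zscan20 with a Pearson correlation of 0.83, Myef2 with 0.80 and Alpk1 with 0.80. Those most like Fancl, the member with the highest mean signal, were Mpnd with 0.86, Cr1l with 0.84 and Mief1 with 0.83. They were picked as the highest of the 8887 tested genes, and over only 12 libraries such a pick can give high values by chance. No p was computed. Unlike those of the pairs, these correlations were not taken on deviations from the genotype means.

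Levels of different genes were compared per kilobase of merged exons. Over the 12 libraries Fancl was highest at 6.21 ± 3.19 signal per kilobase (SD), followed by Fance at 6.11 ± 2.66, Faap24 at 5.38 ± 1.86, Fancb at 3.86 ± 1.50, Fancf at 3.43 ± 2.15, Faap100 at 2.69 ± 1.14, Fancg at 2.48 ± 1.46, Fancc at 2.45 ± 1.41, Fanca at 2.08 ± 0.977 and Fancm at 1.19 ± 0.752. Neighbours in this order were not separated beyond their spread, since each gene stood above the next in only 6 to 9 of 12 libraries. In members with several transcripts the signal may already carry a scaling by transcript, so the order between genes is only approximate. The order also depends on which length is used. With the longest transcript in place of the merged exons, Fance came first at 8.89 and Fancc, whose many annotated transcripts make its merged exons 8.359 kilobases long, rose from 2.45 to 6.47 and from rank 8 to rank 3. Fancm was the lowest with both lengths.

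**Figure D4:**
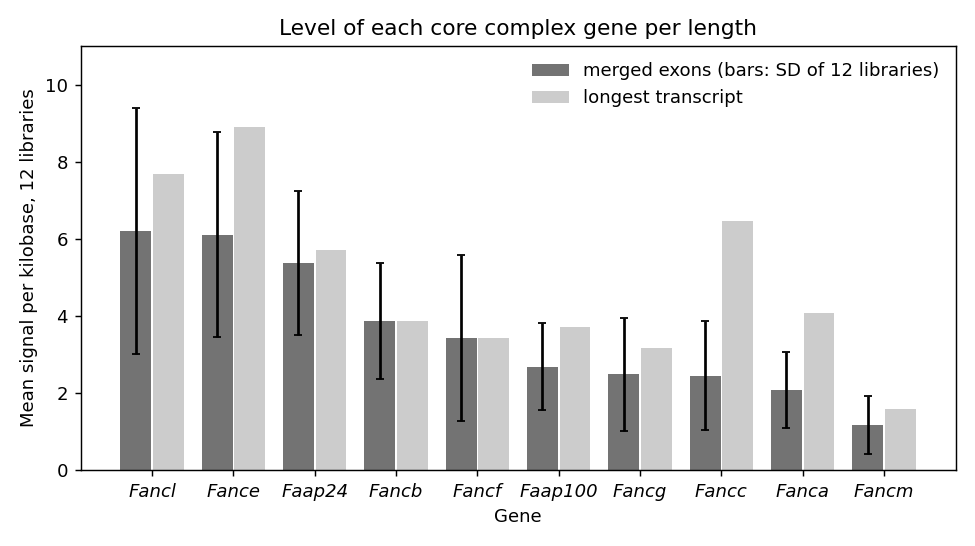
The vertical axis is the mean signal per kilobase over 12 libraries for each core complex gene, with dark bars for merged exons (error bars are the SD) and pale bars for the longest transcript. The level falls from 6.21 in Fancl to 1.19 in Fancm with merged exons, and Fancc changes rank most between both lengths.

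Some members share sequence with other genes, so their signal may hold reads of a neighbour. On the opposite strand, Fanca overlapped exons of Zfp276 by 920 bases, Fancl those of Vrk2 by 462 bases, Fancf those of Gas2 by 253 bases and Faap24 those of Rhpn2 by 138 bases. Fancm, Fancc and Fance overlapped exons of genes with provisional names, while Fancb and Faap100, like Fancg, shared no exonic bases. Of their 31-base words, 17.2% in Fancc, 13.4% in Fancf, 12.3% in Fancl and 10.9% in Fanca also occurred in transcripts of other genes. The strand setting of the quantification was not given, so reads of overlapping genes cannot be told apart in these members.

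The wider pathway was not separated by genotype either. Of 8 partners of the complex, 6 were tested and 0 had an unadjusted p under 0.05, against 3.67% of tested genes. With so few genes a count of 0 lies near that background. Of the 6, 4 had a log2 difference above 0, against 50.7% of tested genes. Over all 8, 5 were above 0 with a median log2 difference of 0.18. Ube2t, the ubiquitin-conjugating enzyme of the complex, had a signal of 16.1 ± 8.52 (SD, n = 6) in WT and 26.5 ± 22.1 (SD, n = 6) in KO, a log2 difference of 0.57 (exact p = 0.297). KO replicate 7 alone reached 70.3. Faap20, the ubiquitin-binding partner of FANCA, was at 7.98 ± 2.88 in WT and 9.02 ± 2.73 in KO (SD, n = 6, exact p = 0.498). In the histone-fold partners of FANCM the groups overlapped as well. Cenps had 5.60 ± 1.81 in WT and 4.85 ± 2.18 in KO (SD, n = 6, exact p = 0.532), and Cenpx had 15.9 ± 5.71 and 17.4 ± 4.94 (SD, n = 6, exact p = 0.639). Top3a, a topoisomerase that FANCM links to the complex and that is named here after its values were seen, had the lowest partner difference at -0.39 (exact p = 0.0649), and its unadjusted limma p was under 0.05 without WT replicate 3, without WT replicate 7 and without KO replicate 3 (limma adjusted p = 0.998 to 0.999).

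Of 22 genes that act downstream of the complex, 18 were tested and 0 had an unadjusted p under 0.05, against 3.67% of tested genes. Here too a count of 0 lies near that background. Of the 18, 12 had a log2 difference above 0, against 50.7% of tested genes. Over all 22, 15 were above 0 with a median log2 difference of 0.12. The substrates of the ligase were at low levels in both genotypes. Fanci had 17.9 ± 5.55 in WT and 21.3 ± 4.86 in KO (SD, n = 6), a log2 difference of 0.26 (exact p = 0.206). Fancd2 had 9.59 ± 3.47 in WT and 11.7 ± 2.09 in KO (SD, n = 6), a log2 difference of 0.31 (exact p = 0.158). Named after their values were seen, Rev1 of translesion synthesis had an unadjusted limma p under 0.05 without KO replicate 4 (adjusted p = 0.999) and Palb2, which joins BRCA1 to BRCA2, without KO replicate 3 (adjusted p = 0.998). The summed signal of the 22 genes was 716 to 885 in WT and 688 to 948 in KO.

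**Figure D5:**
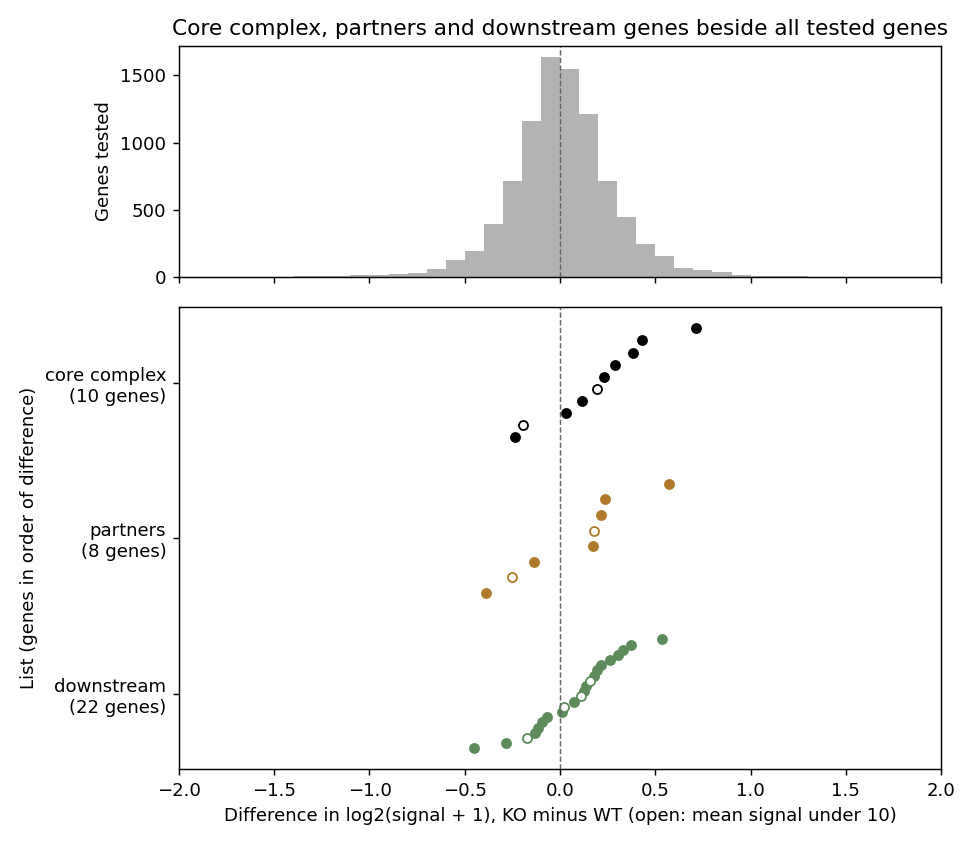
The upper panel counts the 8887 tested genes by their difference in log2(signal + 1), KO minus WT, and the lower panel sets the 10 core complex genes, 8 partners and 22 downstream genes on the same axis. Open points mark genes with a mean signal under 10. The pathway genes run from -0.45 in Dclre1a to 0.71 in Fancm, and Fancm, Ube2t (0.57), Rev1 (0.53) and Dclre1a lie outside the 5th to 95th percentile of tested genes, -0.41 to 0.45.

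The libraries were checked against the sort and against one another. Approximate depth ran from 1235110 to 2471413 reads, and the members together held 86.7 to 198 approximate reads per library. A single gene, Lars2, held 15.6% to 36.2% of the signal in WT libraries and 17.0% to 35.1% in KO libraries. That depth includes Lars2, so less was left for other genes, and the cause was not tested. Of 10 stem and progenitor markers, 9 were above 0 in all 12 libraries, with a summed signal of 1772 to 2314 in WT and 1422 to 2166 in KO. Among them Flt3, a receptor of multipotent progenitors, was 489 ± 95.5 in WT and 358 ± 127 in KO (SD, n = 6, unadjusted limma p under 0.05, adjusted p = 0.9996), and its part in the members' values was not tested. The summed signal of T cell markers was at most 7.51, of erythroid markers 15.3, of B cell markers 20.6 and of granulocyte and monocyte markers 44.8, and Ly6g was listed at 0 in all 12 libraries. The stem and progenitor sum came mostly from Cd34, Flt3, Kit and Meis1. Ly6a, which encodes Sca-1, had a mean of 10.8 over the 12 libraries, below B cell Cd79b at 13.8 and myeloid Itgam at 25.7. Procr had a mean of 5.81 and was at 0 in KO replicate 7. The summed signal of 19 genes of cycling cells was 1851 to 2781 in WT (median 2314) and 1658 to 2920 in KO (median 2576), with 0 of 18 tested genes past an unadjusted p of 0.05. Its part in the members' values was not tested. The summed signal of 4 Y-linked genes was 26.6 in WT replicate 3 and 49.7 in KO replicate 7, and lay between 189 and 435 in the remaining 10 libraries, and X-linked Fancb was 11.5 and 8.03 in those libraries, within the range of the others. Without those 2 libraries 6 of 9 members tested had a log2 difference above 0. In bulk RNA a gene that differs through fewer cells of a type cannot be told apart from less RNA per cell.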

How the data were processed

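RNA from LSK cells of 12 mice (6 WT, 6 KO, n is mice) was sequenced by the study after sorting, with the CATS RNA-seq kit. Each signal deposited by the authors was read, from the column names and the values, as an estimated count over a library size factor. Whether a further scaling by transcript enters genes with several transcripts was not given. Kallisto is named in the submitters' processing notes. The mouse build, annotation, strand setting and the way transcripts were summed to genes were not given in the sources used here. Approximate reads, from the step between low values, are only an estimate of depth and cover counting error only. In genes with several transcripts they were mostly not whole, so there they need not be numbers of reads. Whole reads within 0.001 made up 10.2% to 11.2% of values, so no count test was run.

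The 8887 of 35999 genes that reached a mean signal of 10 were tested on log2(signal + 1), which understates changes of low genes, with limma 3.58.1 (R 4.3.3, trend, two-sided, Benjamini-Hochberg adjustment over tested genes). Named genes also had two-sided exact permutation tests over 924 divisions of the libraries, with a smallest p of 0.0022. The p-values set each difference against the spread between libraries, 1 per mouse, which also holds the noise of low read numbers. Scripts were tested on simulated data. Fancf and Fancg fell below the filter, so their exact test stands in for limma and their interval comes from the fit without a filter. Positions are from GENCODE vM21 (GRCm38), in which 35929 of the 35999 gene names were found.

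The members and lists were chosen with earlier results of these data known. Named genes were the 10 members, Ube2t, Faap20, Cenps, Cenpx, Fanci and Fancd2, listed genes with an unadjusted p under 0.05, and the 3 genes most correlated with Fancg and with the member of highest mean signal. Alternatives changed the pseudocount, the filter, the normalization, the limma trend, the replicate block or the libraries. The spread ratios, the read counts and the promoter words were added as descriptions.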

Additional observations from a re-analysis of the deposited data

Results flagged for a closer look

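In each member and in the summed signal of the members, the highest and the lowest of the 6 libraries of a genotype were set against the others (Dixon's ratio). The ratio was taken on signal, while the tests of genotype used log2(signal + 1). Over 22 groups chance alone would give about 1.1 if signal were normally distributed, which was not tested. There were 2, which for that reason cannot be read as more than chance. Whether either library would be flagged on log2(signal + 1) was not tested. Fancg was at 24.1 in WT replicate 7, where the remaining WT libraries lay between 4.76 and 9.40, with a gap of 0.760 of the whole range. Without that library the log2 difference of Fancg changed from -0.20 to 0.07. Fancl was at 31.9 in WT replicate 2, where the remaining WT libraries lay between 12.1 and 18.7, with a gap of 0.664 of the range. The cause of either value was not tested.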

How the results depend on the processing

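Approximate depth of 1235110 to 2471413 reads, Lars2 included, left most members under 20 approximate reads in a typical library. The variance of approximate reads between libraries was above that of read counting in all members. In members with several transcripts these need not be reads, so that ratio is only a description. Depth and the spread between libraries both limit these values. No test of detection was run. Without a filter 836 genes (415 higher, 421 lower) and with a mean signal of at least 50 only 91 genes (45 higher, 46 lower) had an unadjusted p under 0.05, against 326 (176 higher, 150 lower) as reported, since more or fewer genes entered. The number of genes with an adjusted p under 0.05 was 0 in every alternative run, and no member passed the filter of 50. With each library left out in turn the number of genes with an unadjusted p under 0.05 ran from 276 to 385, that of core complex genes from 0 to 1 and that of pathway genes from 0 to 2. With libraries left out in turn the log2 difference ran from -0.36 to 0.067 in Fancg, from -0.10 to 0.27 in Fance, from -0.066 to 0.45 in Fancf and from -0.16 to 0.24 in Faap100. Faap100 was also at -0.0045 with quantile normalization and at -0.030 without WT replicate 3 and KO replicate 7, and the cause was not tested. Per kilobase of the longest transcript Fanca was at 4.06, Fancc at 6.47 and Fance at 8.89. Fancf and Fancg had no value with quantile normalization, without trend or with the block, because they lie below the filter.

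The titles give both genotypes the replicate numbers 2 to 7, and nothing says that they mark a litter, batch or day. The deviations of same-numbered libraries correlated at over 0.1 in 4 of 6 pairs (the others at 0.091 and 0.086, mean 0.20, against -0.04 for other numbers). Deviations were taken within each genotype, which by itself pulls the mean for other numbers below 0. The WT library matched its own number best in 5 of 6. This is a hint from the data and not from the design, so the numbers were not taken as pairs. With the replicate number as a block, 476 genes had an unadjusted p under 0.05 (5.36% of tested genes), 0 an adjusted p under 0.05, 0 core complex genes passed the unadjusted threshold, and 1 pathway gene did, Palb2 (log2 difference 0.37, limma adjusted p = 0.889). Fancc was higher in the KO library of the same number in 6 of 6 pairs (exact sign-flip p = 0.031, the smallest it can give), as were 1.81% of tested genes. With the block its limma p was 0.056 (adjusted p = 0.889), and that of Fancm was 0.083 (adjusted p = 0.910). Named after their values were seen, Rev1 and Palb2 were also higher in 6 of 6 and Usp1 in 0 of 6.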
